A study of Mus musculus with 2 samples.

Results

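Meningeal and perivascular fibroblasts were represented by 108 of the 17653 barcodes that passed quality limits in 2 single-cell libraries of mouse cerebral cortex, 47 of 9540 in the control library and 61 of 8113 in the library of white matter injury (WMI). A barcode, the tag of 1 droplet, passed with at least 1000 UMIs (unique molecular identifiers, each standing for 1 captured transcript), at least 500 genes and at most 10% mitochondrial UMIs. It was called a member when at least 3 of the 8 genes Col1a1, Col1a2, Col3a1, Dcn, Slc6a13, Slc47a1, Ranbp3l and Bnc2 had a UMI and Slc17a7, Gad1 and Gad2 together had at most 2. Since the members were chosen on the measured counts of these 8 genes, the levels of those genes in them are given as a description.

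Both libraries came from C57BL/6 mice. By the labels, the right carotid artery of WMI mice was tied on postnatal day 7 under 1 h of hypoxia, the operated cortex was taken on day 14, and cortex of the same side was taken from control mice. The methods of the study give an earlier surgery, a longer hypoxia and dissociated cells, whereas the labels speak of nuclei. The study's text also has a younger age at sampling and speaks of a control side of the cortex, so that whether the control was another animal or another hemisphere was not settled here. The study describes replicates in each group. Here 1 library of each was at hand, so that no difference between the groups has a replicate check, no test was made, and all intervals are exact 95% intervals that cover counting error only.

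Fibroblasts of the brain lie in the layers that wrap it, the pia on the surface of the cortex, the arachnoid above it and the dura outside, and along the larger vessels that enter from the pia. They lay down collagens and the laminins of the basement membrane between brain and meninges, carry transporters for solutes of the cerebrospinal fluid, and keep transcription factors of cranial mesenchyme and neural crest. Fibrillar collagens, the proteoglycan decorin and the transporters used in the rule are among their usual markers, and a dissected cortex keeps them to the extent that the pia is left on it.

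Promoter sequence is shown for 3 rule genes that the members carried in different combinations, Col1a2 in all groups of members described below, and Slc6a13 and Ranbp3l, which went together. Each line gives the 120 bases before the transcription start from RefSeq on GRCm38.p6, 5′ to 3′ on the strand of the gene, with a CCAAT match in capitals.
Col1a2: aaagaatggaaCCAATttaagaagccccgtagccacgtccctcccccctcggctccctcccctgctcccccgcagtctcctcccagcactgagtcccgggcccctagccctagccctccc
Slc6a13: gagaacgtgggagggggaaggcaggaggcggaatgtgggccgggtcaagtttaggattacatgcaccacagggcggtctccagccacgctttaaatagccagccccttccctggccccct
Ranbp3l: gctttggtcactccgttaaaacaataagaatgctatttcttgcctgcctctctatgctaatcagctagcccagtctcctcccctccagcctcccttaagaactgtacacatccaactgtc
The Col1a2 window is chr6:4505498-4505617 on the plus strand, the Slc6a13 window, before the first of 3 listed starts, is chr6:121300168-121300287 on the plus strand, and the Ranbp3l window is chr15:8967829-8967948 on the plus strand. CCAAT, read on both strands, was in 21.3% of 32851 RefSeq start windows of this length, and TATAAA, which does not overlap with it and was in none of these 3 windows, in 6.34%. Of the 8 rule genes, 5 had a start in the table. These libraries count transcripts and do not measure promoters, so a match is a description of sequence alone.

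The share of passing barcodes that were members was 0.493% (0.362 to 0.655%) in control and 0.752% (0.576 to 0.965%) in WMI. The intervals overlapped, and the gap closed when every barcode was thinned at random to 1000 UMIs before the rule was applied, which left 19 members in control (0.199%, 0.120 to 0.311%) and 17 in WMI (0.210%, 0.122 to 0.335%). The members were not shallow. Their median depth was 6248 UMIs in control (1430 to 16542) and 5545 in WMI (1770 to 11401), beside medians of 4727.5 and 5267 over all passing barcodes. Together they held 312591 and 364670 UMIs, out of 66470806 and 60568639 in the libraries. A further 10 control and 6 WMI barcodes held at least 3 rule genes and were kept out by neuronal UMIs, and 5 and 3 members were predicted to be doublets. The libraries shared 36 barcode sequences, none of them a member in both.

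**Figure D1:**
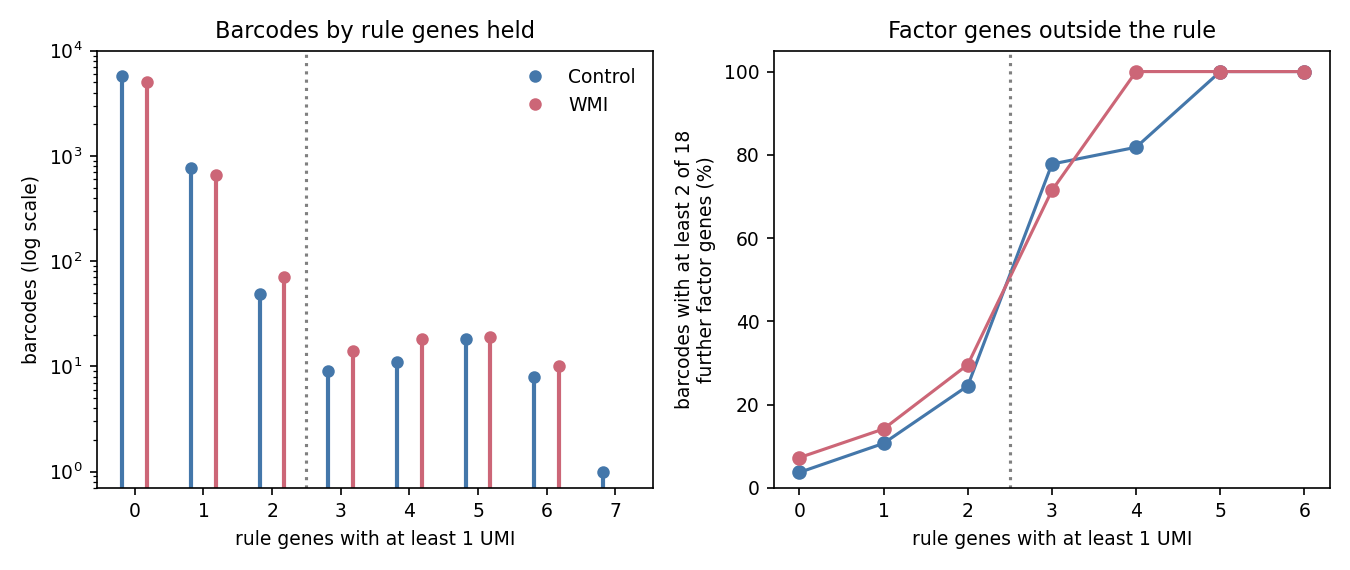
Left, number of barcodes (log scale) that held 0 to 7 of the 8 rule genes, for barcodes with at most 2 neuronal UMIs; right, percentage of them with at least 2 of 18 transcription factor genes that the rule did not use, drawn for bins of 5 or more barcodes. The dotted line is the limit of the rule. Counts fell to 9 and 14 barcodes at 3 genes and were 18 and 19 at 5 genes, and the percentage went from 24.5% and 29.6% at 2 genes to 77.8% and 71.4% at 3.

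The number of rule genes per barcode had a dip at the limit of the rule. Among barcodes with at most 2 neuronal UMIs, 49 control and 71 WMI barcodes held 2 rule genes, just outside the limit, 9 and 14 held 3, just inside it, 11 and 18 held 4, and 18 and 19 held 5. Members with 3 rule genes had a median of 5 rule gene UMIs in control and 4 in WMI, and barcodes with 2 had a median of 2 in each library. No barcode held all 8.

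The label was checked with 18 transcription factor genes of meningeal mesenchyme that the rule did not use, such as Foxc1, Zic1, Tbx15, Tbx18 and Osr1. At least 2 of them had a UMI in 43 of 47 control members (91.5%) and 57 of 61 WMI members (93.4%), against 4.37% and 7.66% of the other passing barcodes, whose median depth was lower. None was found in 2 control and 3 WMI members. For barcodes just outside the limit the share was 24.5% and 29.6%, and for those just inside it 77.8% and 71.4%. The members therefore carried the factor genes of this cell type, and the rule missed some barcodes that carried them too.

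Members were also set beside all other passing barcodes of their library. Of 1122 genes with at least 50 UMIs in the members of each library, 128 (11.4%) were at least 4-fold above the other barcodes in both libraries. The rule used this contrast for its own genes, and 6 of the 20 genes with the largest ratios were rule genes. The other 14 were the T-box genes Tbx15 and Tbx18, the zinc finger genes Zic4 and Prdm6, the imino acid transporter gene Slc6a20a, the growth factor gene Bmp6, the laminin gene Lama1, the prostaglandin D synthase gene Ptgds, the matrix genes Adamts12 and Svep1, and Cped1, Arhgap28, C1qtnf7 and Gm8189. Levels are given as CPM, the UMIs of a gene per 1000000 UMIs of all genes in the summed barcodes. Tbx18 was at 186 CPM in control and 233 CPM in WMI members against 0.412 and 0.684 in the other barcodes. Zic4 was at 285 in both against 0.503 and 0.934, and Bmp6 at 989 and 1152 against 4.99 and 7.35. Some of these genes were also found in the 3 control and 16 WMI barcodes that met mural markers. There Tbx18 was at 268 and 25.1, Zic4 at 179 and 62.7, Slc6a20a at 0 and 351, and Bmp6 at 0 in both. The median depth was 3222 UMIs in the 3 control and 4201 in the 16 WMI mural barcodes. Levels from the 3 control ones thus rest on few UMIs, and a 0 there does not mean a low level. For the smaller of the 2 ratios the log2 value was 8.41 for Tbx18, 8.25 for Zic4 and 7.29 for Bmp6.

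Each rule gene was found in part of the members only. Col1a2, which encodes a chain of type I collagen, had a UMI in 38 of 47 control members and 52 of 61 WMI members, with 0 to 19 UMIs (median 3) and 0 to 12 (median 2). Excitatory barcodes, those with at least 3 UMIs of the glutamate transporter gene Slc17a7, should lack it, and at median depths of 10397 and 11595.5 UMIs 2.87% and 3.00% of them had one. With every barcode thinned to 1000 UMIs, Col1a2 remained in 40.4% (26.4 to 55.7%) of control and 32.8% (21.3 to 46.0%) of WMI members and in 0.382% and 0.428% of excitatory barcodes. Col1a1, the other chain, was found in 28 and 35 members, Col3a1, type III collagen, in 27 and 24, and Dcn in 28 and 47. These genes chose the members, and a single member showed only some of them.

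Among the other 4 rule genes Slc47a1 was seldom found with Slc6a13 or Ranbp3l. Slc47a1, which encodes an exporter of organic cations and toxins, had a UMI in 18 control and 10 WMI members, and Slc6a13, a transporter of GABA and taurine, in 26 and 32. No member of either library held both. Slc47a1 and Ranbp3l, which encodes a Ran-binding export factor of Smad proteins, were together in 1 of 47 control and 0 of 61 WMI members, although Ranbp3l was in 23 and 43. Slc6a13 and Ranbp3l by contrast were together in 21 and 28 members, that is in 80.8% and 87.5% of the members with Slc6a13. Bnc2, a zinc finger gene, was in 17 of the 18 control and all 10 WMI members with Slc47a1. It was not limited to them, since Bnc2 and Ranbp3l were together in 11 and 13 members and Bnc2 and Slc6a13 in 10 and 7. Because the rule asks for 3 of these same 8 genes, it shapes which of them occur together in members, and the pairs are given as a description.

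**Figure D2:**
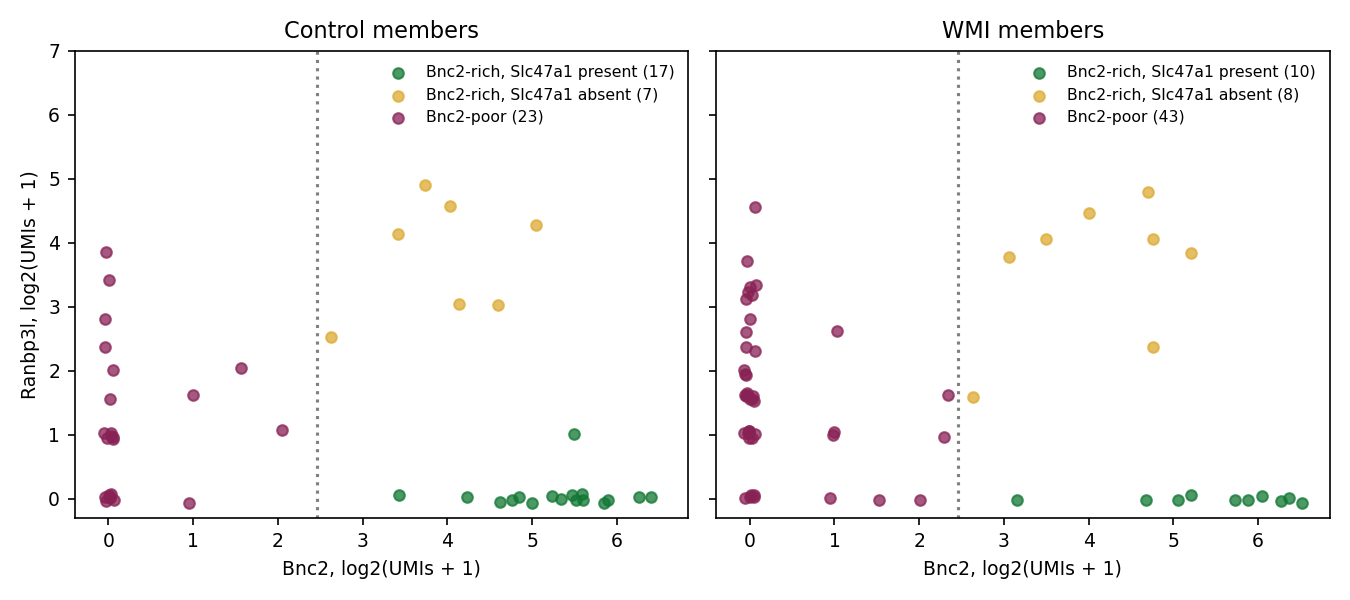
UMIs of Bnc2 (horizontal) and Ranbp3l (vertical) in each member, as log2(UMIs + 1) with a small random shift, for 47 control and 61 WMI members; colours mark the 3 groups and the dotted line the limit of 5 Bnc2 UMIs. Bnc2-rich members with Slc47a1 lie along the right of the axis at 0 Ranbp3l UMIs but for 1, those rich in Bnc2 without Slc47a1 lie above them with 2 to 28 UMIs, and Bnc2-poor members stand at the left.

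The members were described in 3 groups, chosen after their values had been seen and cut from 2 rule genes. Bnc2 had no UMI in 19 control and 35 WMI members, 1 to 4 in 4 and 8, 5 to 9 in 1 and 3, and 10 or more in 23 and 15, so that few members lay near a limit of 5 UMIs. Members at or above it and with a UMI of Slc47a1 numbered 17 in control (36.2%, 22.7 to 51.5%) and 10 in WMI (16.4%, 8.15 to 28.1%). Those at or above it without Slc47a1 numbered 7 (14.9%, 6.20 to 28.3%) and 8 (13.1%, 5.84 to 24.2%). The Bnc2-poor members numbered 23 (48.9%, 34.1 to 63.9%) and 43 (70.5%, 57.4 to 81.5%). In control 1 Bnc2-poor member held Slc47a1, and below, members with Slc47a1 stands for the Bnc2-rich ones. Among the 25 WMI members without a UMI of the X-inactivation gene Xist, described below, 3 (12%) were Bnc2-rich. The 3 sets are groups of barcodes, and no cell type or layer was read from them. A gene with no UMI in a group can still reach 3 counts, which is 26.1 CPM in control and 41.6 in WMI for the first group, 57.9 and 51.9 for the second, and 20.6 and 12.8 for the third.

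**Figure D3:**
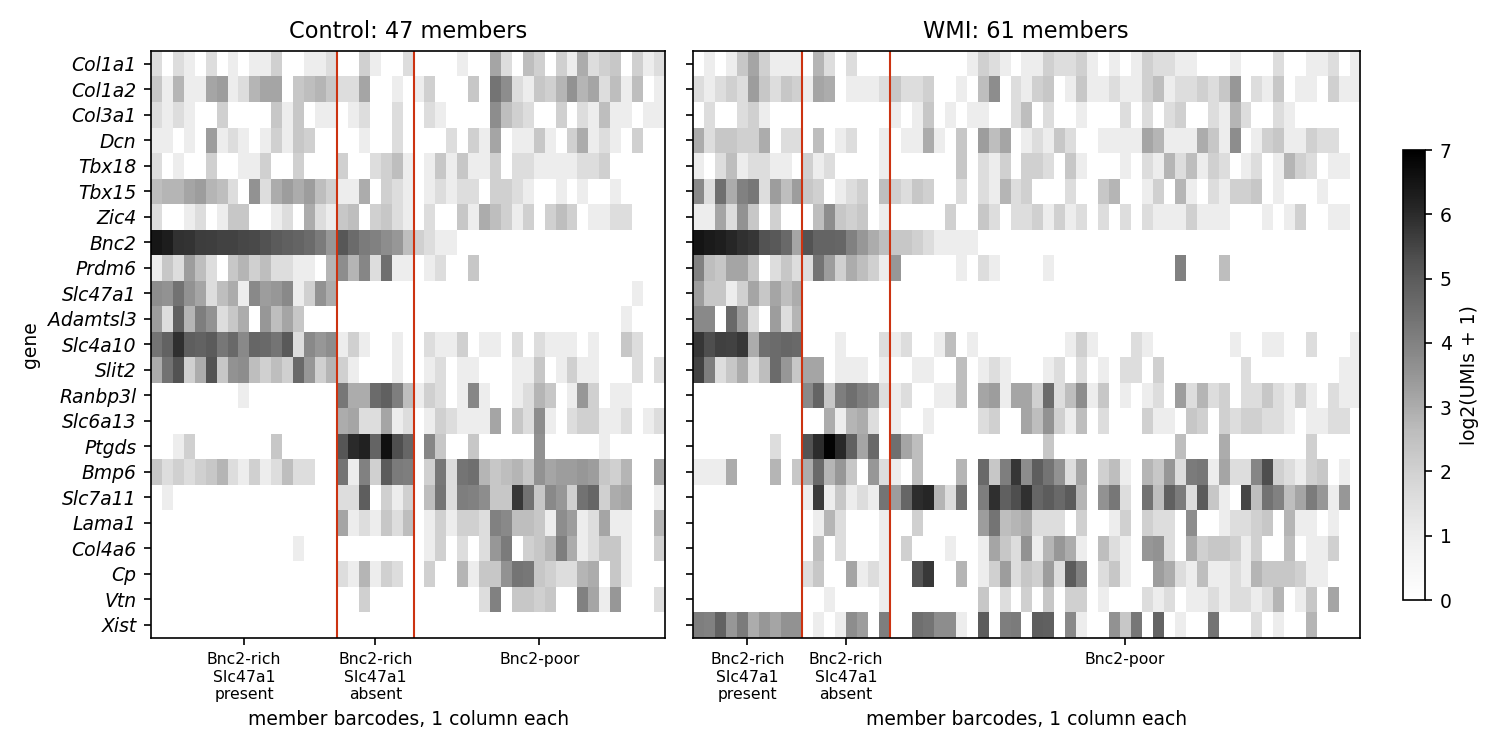
UMIs of 23 genes (rows) in each of the 47 control and 61 WMI members (columns), as log2(UMIs + 1) from white at 0 to black at 7; red lines part the 3 groups, and within a group columns run from high to low Bnc2. Slc47a1, Adamtsl3, Slc4a10 and Slit2 are dark in the first group, Ranbp3l and Ptgds in the second, and Slc7a11, Lama1, Col4a6 and Cp mostly in the third. Xist is seen in WMI members alone.

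The Bnc2-rich members with Slc47a1 had the most Bnc2, 10 to 87 UMIs in control (median 43) and 8 to 89 in WMI (median 56). Slc47a1 itself had 1 to 20 (median 9) and 1 to 9 (median 4.5). Slc6a13 and the laminin gene Lama1 had no UMI in any of these members, and the cystine transporter gene Slc7a11 had 1 in all. Genes that the rule did not use followed. Slc4a10, which encodes a sodium-driven bicarbonate transporter, had 2 to 59 UMIs (median 24) in control and 7 to 54 (median 32) in WMI, against medians of 1 and 0 in the Bnc2-poor members, and its summed level was 3340 (3014 to 3691) and 4687 (4201 to 5215) CPM against 158 and 102. Adamtsl3, which encodes a secreted ADAMTS-like protein, had 112 and 78 UMIs against 1 and 0. Slit2, a secreted guidance ligand, had 196 and 118 against 21 and 28, the forkhead gene Foxp2 282 and 168 against 40 and 48, and Tbx15 100 and 101 against 20 and 66. These genes were high in this group in both libraries. Col1a2 was in 16 of 17 and 10 of 10 of its members, which the rule largely fixed, since they had no Slc6a13 and hardly any Ranbp3l and so met it through the collagen genes or Dcn.

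Over the 1122 genes, 86 (7.66%) were at least 2-fold higher and 122 (10.9%) at least 2-fold lower in this group than in the Bnc2-poor members of the same library, in both libraries. Since the groups were cut from these counts, the numbers describe how far apart they lay. Higher genes with the largest ratios also included Cdon, a hedgehog co-receptor, the matrix genes Hmcn1, Thsd4, Col25a1 and Adamtsl1, the vitamin C transporter gene Slc23a2, the amino acid transporter gene Slc38a2 and the receptor gene Egfr. Slc38a2 had 4 to 27 UMIs (median 12) in control and 10 to 39 (median 18.5) in WMI, where Bnc2-poor members had medians of 1 in each. Egfr had 160 and 136 UMIs in this group, against 18 and 62 in the Bnc2-poor members.

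The Bnc2-rich members without Slc47a1, 7 and 8 in number, were set apart by Ptgds, whose product makes prostaglandin D2 and is abundant in cerebrospinal fluid. Ptgds had 25 to 97 UMIs (median 38) in the control members and 0 to 119 (median 32) in the WMI members, where 1 of the 8 had none. These few members held 355 of 397 control and 342 of 397 WMI Ptgds UMIs. Ranbp3l had 5 to 28 (median 16) and 2 to 26 (median 14.5). Trpm3, which encodes a cation channel, had 137 to 336 UMIs (median 191) and 4 to 389 (median 318.5), a summed level of 28521 (27086 to 30013) and 37591 (36027 to 39206) CPM against 1920 and 3114 in the Bnc2-poor members. Of the 1122 genes, 43 (3.83%) were at least 2-fold higher and 53 (4.72%) at least 2-fold lower in this group than in the Bnc2-poor members in both libraries, and the lower ones included Dcn, Col3a1, Col4a6, Vtn and Flrt2.

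Atp13a5, a P-type ATPase gene counted among mural markers, was found mainly in this group. It had 0 to 53 UMIs (median 14) in the 7 control members, where 6 held it, and 0 to 25 (median 0) in the 8 WMI members, where 3 did, and no UMI in the rest of the control members. In WMI 4 Bnc2-poor members held another 9 of the 42 UMIs. Of the other 7 genes of the mural list, Rgs5, Kcnj8, Higd1b and Myh11 had no UMI in any member of either library, Vtn had 71 in control and 58 in WMI, Notch3 had 1 and 5, and Abcc9 had 0 and 1. Myh11 was also at 0 in the 3 control and 16 WMI barcodes that met the mural markers, and Kcnj8 in the 3 control ones.

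Several genes of the basement membrane were higher in the Bnc2-poor members than in those with Slc47a1. Of the 6 genes of that list with enough UMIs in each library, 4 were at least 2-fold lower in the members with Slc47a1 in both libraries, and 1 in the Bnc2-rich members without it. Over all 1122 genes the shares lower were 10.9% and 4.72%. Lama4 was higher in the latter (444 and 519 CPM) than in Bnc2-poor members (151 and 366). Lama1 had 0 to 15 UMIs (median 3) in control and 0 to 19 (median 1) in WMI, and Col4a6, a chain of type IV collagen, was found in 17 of 23 and 29 of 43, with 86 and 121 UMIs against 1 and 0 in the Bnc2-rich members with Slc47a1. Col4a5, the partner chain, had 124 and 132 UMIs against 5 and 2. Lamc3, another laminin gene, had 28 of its 29 control UMIs and all 42 of its WMI UMIs in Bnc2-poor members. Slc7a11 had 0 to 53 UMIs (median 7) and 0 to 67 (median 15). Cp, which encodes the ferroxidase ceruloplasmin, had 95 and 231 UMIs, Vtn, the matrix protein vitronectin, 68 and 56, and Il34, a cytokine that binds the receptor of microglia and macrophages, 55 and 79, and each had at most 1 UMI in either library in the members with Slc47a1. These genes were found in Bnc2-poor members of both libraries, with a wide spread from member to member.

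**Figure D4:**
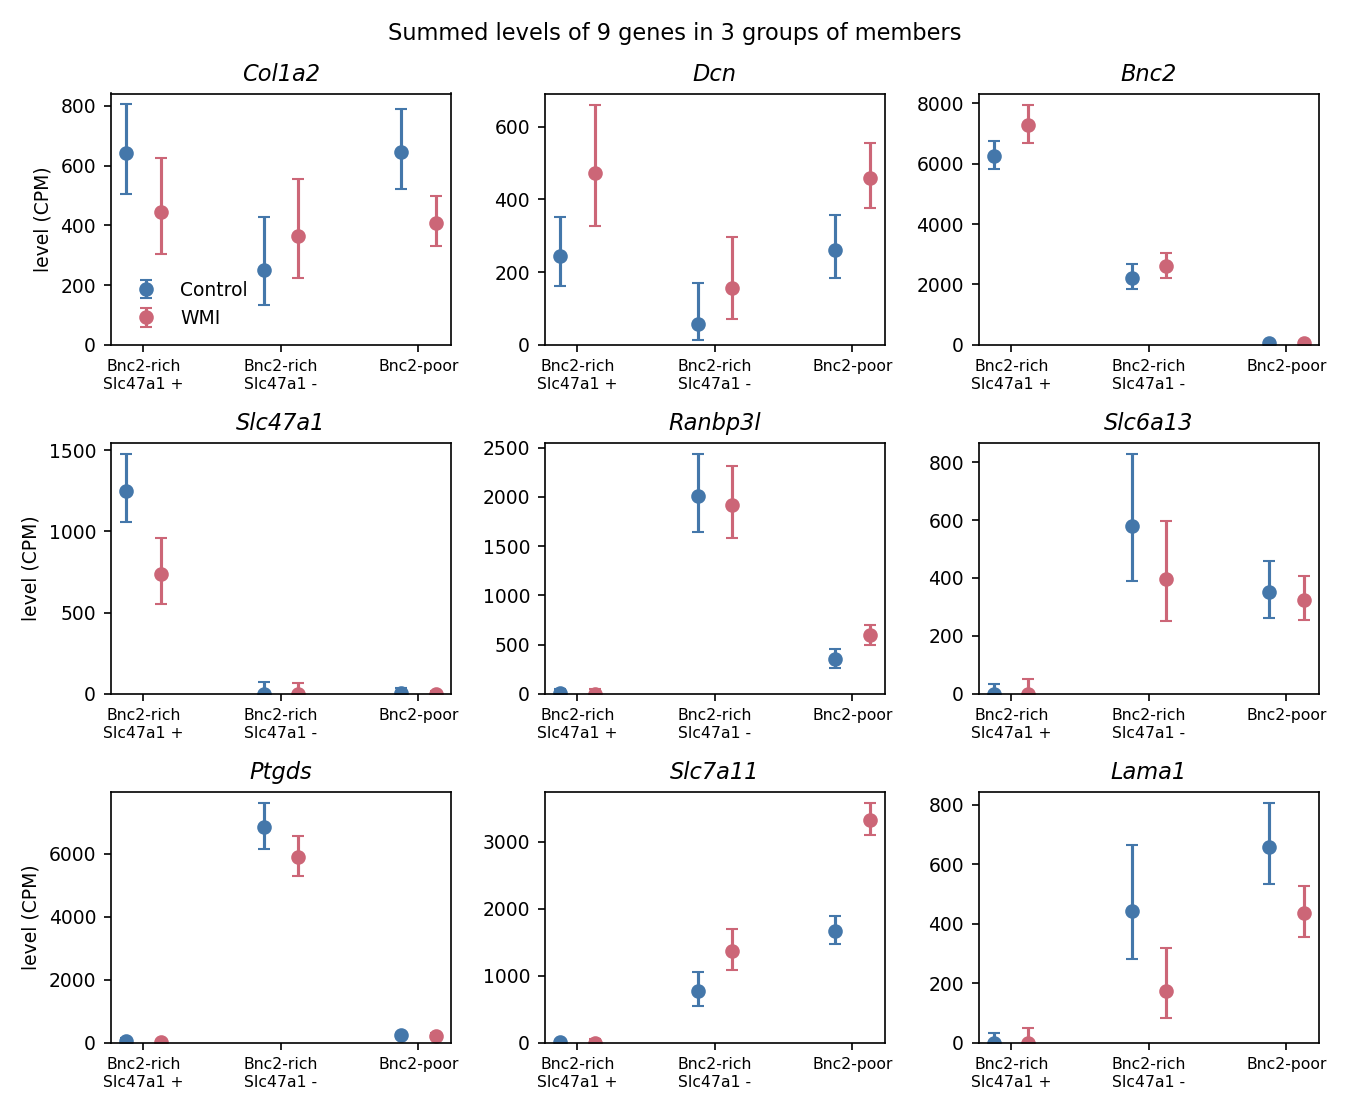
Summed level of 9 genes, in CPM, in the 3 groups of members of the control (blue) and WMI (red) libraries; points are sums over all members of a group and bars are exact 95% Poisson intervals for counting error. Each vertical axis starts at 0 and has its own scale. Bnc2 runs from 6271 and 7281 in the first group to 48.0 and 72.4 in the third, Ptgds peaks in the second group, and Slc7a11 and Lama1 are near 0 in the first.

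Markers of the meningeal layers did not all go one way. Of the pial list Lama1 and Col18a1 were absent from the members with Slc47a1 (Col18a1 had 27 control and 25 WMI UMIs in all members), while Gja1, which astrocytes also make, had 60 of its 98 control UMIs there. In WMI the whole pial list had 28 UMIs in the members with Slc47a1, and Gja1 had 67 over all members, so most of them lay outside that group. Of the arachnoid list Slc47a1 lay in one group, Ptgds in another, and Aldh1a2, which makes retinoic acid, had 14 of 28 control and 43 of 56 WMI UMIs in Bnc2-poor members. Of the arachnoid barrier list Dpp4 had 9 and 25 UMIs, 21 of the latter in 1 member, and Alcam, also made by other cells, led with 834 and 1337. The dural list summed to 88 and 81 UMIs, with 29 and 16 of Mgp. Perivascular markers were few: the list summed to 79 and 120 UMIs, and Col15a1, which marks fibroblasts along vessels, had 17 and 16 UMIs in 5 control and 8 WMI members, all Bnc2-poor, with 76.5% of the control UMIs in 1 member. Genes of the pial and arachnoid lists were thus found across the members, and Col15a1 in a minority.

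Genes of other cell types were present in the members and differed between the libraries. The microglial list of 8 genes summed to 160 CPM in control and 502 in WMI members, with all 8 found in control and 7 in WMI, where Tmem119 was at 0. At least 3 of the 8 were held by 1 control and 19 WMI members. The same list summed to 226 and 651 in the other barcodes, and 664 control and 2669 WMI barcodes met it. The macrophage list summed to 9.60 and 38.4, with Pf4, Cd163, Ms4a7 and Cbr2 at 0 in both libraries. The endothelial list summed to 141 and 304, led by Cdh5 in control (18 UMIs) and Slco1a4 in WMI (45), with Cldn5, Ly6c1 and Adgrl4 at 0 in control and Ly6c1 in WMI.

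The mural list summed to 643 and 291, of which Atp13a5 was 129 of 201 UMIs in control and Vtn 58 of 106 in WMI. The astrocyte list, led by Slc4a4 in control (210 UMIs) and Slc1a3 in WMI (443), summed to 1907 and 2325, and at least 3 of its 8 genes were in 32 and 45 members. The other barcodes stood at 474 and 521, so that members were above them, at 74.6% and 80.2% of the level in barcodes that met the astrocyte markers (2556 and 2901). Single genes of the list differed in direction. Aqp4 was at 3.20 and 35.6 CPM in members against 73.1 and 227 in those barcodes, and Slc39a12 at 9.60 and 5.48 against 178 and 153. Aldh1l1, Slc1a3, Slc4a4 and Gli3 were also lower in members. Gja1, at 314 and 184 against 90.5 and 129, and Gjb6, at 83.2 and 118 against 35.6 and 22.5, were higher in members. The neuronal list of 9 genes summed to 3209 and 2284, led by Syt1 (541 and 411), with at least 3 genes in 46 and 57 members, beside 7229 and 6309 in the other barcodes. The oligodendrocyte lineage list summed to 950 and 1355, led by Pcdh15 (223 and 319), with Sox10 at 0 in control and Mog in WMI. The ependymal and choroid plexus list had 8 and 22 UMIs, with Ttr and Folr1 at 0 in both, and the list for Schwann and ensheathing cells had 41 and 61, with Pmp2 at 0 in both. Of these, neuronal genes were found in nearly all members, astrocyte genes in most, and microglial genes in many WMI members, and their part in the results below was not tested.

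The libraries differed in a further respect that no treatment label gives. Xist, which is transcribed from the inactive X chromosome of female cells, had no UMI in 47 control members, which, taken as 3 counts, allows up to 6.38% of such members with a UMI, and 458 UMIs in 36 of 61 WMI members (59.0%). Of all passing barcodes 5 in control and 5220 in WMI (64.3%) had one. In WMI, all 10 Bnc2-rich members with Slc47a1 held Xist, 5 of 8 without it and 21 of 43 Bnc2-poor members. Sex and treatment cannot be told apart between these libraries.

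The comparison of the libraries asked how the members differed after WMI. Over the members the gene with the largest ratio was Xist, at least 131-fold higher in WMI when the control is set to 3 counts. The next 9 in order were Ctsd, Rcan2, mt-Nd3, Ctsb, Fat4, mt-Nd2, mt-Nd1, Fbn2 and mt-Cytb, with log2 ratios from 2.74 to 1.60. Genes lower in WMI were led by Ubash3b, Atp13a5, Slc47a1 and Col25a1. Of 1345 genes with at least 100 UMIs over the members of both libraries, 30 (2.23%) were at least 2-fold higher in WMI members and 16 (1.19%) at least 2-fold lower, and the median log2 ratio was -0.0037. Of the 30, 14 were also at least 2-fold higher in the other barcodes of the WMI library, and of the 16, 1, Slc47a1, was also at least 2-fold lower there. The shares of all 1345 genes past 2-fold in the other barcodes are not given here, so no contrast was read from the 14 and the 1. Without the WMI members that held Xist, 15 genes were higher and 44 lower.

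Ctsd, which encodes the lysosomal protease cathepsin D, had 14 UMIs in 11 control members and 109 in 46 WMI members, a log2 ratio of 2.74 (1.93 to 3.66). In the other barcodes the log2 ratio was 3.11. Ctsb, cathepsin B, had 21 and 81 UMIs, a log2 ratio of 1.73 (1.02 to 2.49), and 2.24 in the other barcodes. Both genes were higher in WMI by as much or more outside the members, and the microglial list moved the same way.

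Mitochondrial transcripts were higher too. The median mitochondrial share was 0.245% in control and 0.745% in WMI members, against 0.0628% and 0.458% over all passing barcodes. Of 8 mitochondrial genes tested, 7 were at least 2-fold higher, against 2.23% of all genes tested. The log2 ratios of the 8 were 0.60 to 1.94 in the members and 1.41 to 2.77 in the other barcodes. mt-Cytb had 364 UMIs in 35 control members and 1289 in 60 WMI members, a log2 ratio of 1.60 (1.43 to 1.77), beside 2.31 in the other barcodes. mt-Nd1 stood at 1.62 (1.36 to 1.88) beside 2.17, mt-Nd2 at 1.66 and mt-Nd3 at 1.94. Without the WMI members that held Xist all 4 were under 2-fold, with mt-Cytb at 0.72, mt-Nd1 at 0.48, mt-Nd2 at 0.89 and mt-Nd3 at 0.51, whereas Ctsd stayed at 2.81.

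Fat4, an atypical cadherin of planar polarity, had 25 UMIs in 17 control members and 96 in 33 WMI members, a log2 ratio of 1.72 (1.07 to 2.42), beside 0.26 in the other barcodes. Fbn2, a fibrillin of elastic microfibrils, had 45 UMIs in 18 control and 160 in 37 WMI members, 1.61 (1.12 to 2.12) beside 0.75. Both were higher in all 3 groups of members, with log2 ratios of 1.11 to 2.27 for Fat4 and 0.84 to 1.55 for Fbn2. Without members that also met the markers of another class Fat4 was at 0.41, under 2-fold, and Fbn2 at 1.87. Rcan2, a regulator of calcineurin, had 13 and 91 UMIs, but 36.3% of the latter came from 1 member, and its log2 ratio of 2.59 (1.74 to 3.55) stood beside -0.68 in the other barcodes. It turned to -1.17 without members that also met the markers of another class, and was at 0.99 without the WMI members that held Xist.

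**Figure D5:**
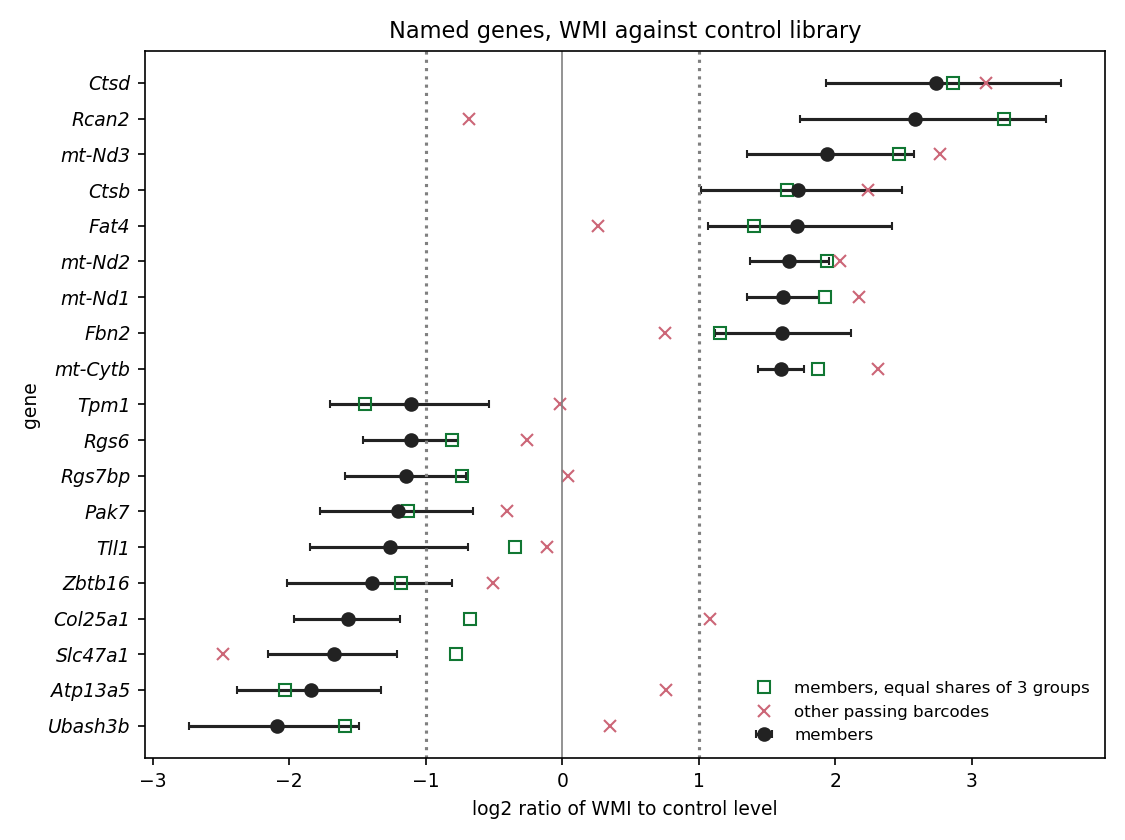
Log2 ratio of the WMI to the control level (horizontal) for the 9 highest genes after Xist and the 10 lowest (vertical). Black points are all members with exact 95% intervals for counting error, green squares the ratio with equal shares of the 3 groups, and crosses the other passing barcodes. The mitochondrial genes, Ctsd and Ctsb lie as high in the other barcodes as in the members, and Slc47a1, Col25a1 and Tll1 move to -0.78, -0.67 and -0.35 with equal shares.

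Members with Slc47a1 and rich in Bnc2 were 17 of 47 in control and 10 of 61 in WMI, so the genes lower in WMI are also given with equal shares of the 3 groups. The groups were cut from Slc47a1 and Bnc2, so that for these 2 genes the move with equal shares is partly built into the cut. Slc47a1 had 145 UMIs in control and 53 in WMI, a log2 ratio of -1.67 (-2.16 to -1.21), and -0.78 when the 3 groups were given equal shares in both libraries. In the other barcodes, where it was at 1.68 and 0.300 CPM, its log2 ratio was -2.48. Col25a1, a membrane collagen, had 201 and 79 UMIs, -1.57 (-1.96 to -1.19), and -0.67 with equal shares. It turned to 0.38 when each rule gene needed 2 UMIs, and was at -0.26 without members that also met the markers of another class. Within the groups Col25a1 was at -1.15 in members with Slc47a1, at -1.94 in Bnc2-poor members and at 3.16 in the Bnc2-rich members without Slc47a1, where 18 of 20 WMI UMIs lay in 1 member. Bnc2 had 843 and 692 UMIs, -0.51 (-0.65 to -0.36), and turned to 0.22 with equal shares. Tll1, a tolloid-like protease gene, went from -1.26 to -0.35, with 30% of its 80 control and 51.3% of its 39 WMI UMIs in 1 member each. Ubash3b, a phosphatase gene, with 106 and 29 UMIs, was at -2.09 (-2.74 to -1.49) and at -1.59 with equal shares. Zbtb16, a zinc finger gene, stood at -1.40 and -1.18. Atp13a5 was at -1.84, with 41.1% of the control and 59.5% of the WMI UMIs in 1 member each. Pak7, Rgs7bp, Rgs6 and Tpm1 completed the 10, with log2 ratios of -1.21 to -1.11. Rgs6 had 25.5% of its control UMIs in 1 member and stood at -0.34 without predicted doublets. Pak7, Rgs7bp and Rgs6 are known from neurons, and 98 of the 127 control UMIs of Rgs7bp lay in the members with Slc47a1.

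Matrix genes were taken by list. The 4 fibrillar collagen genes tested, of 10 listed, had a median log2 ratio of -0.55, and none passed 2-fold. Over all 1345 genes tested 2.23% were higher and 1.19% lower, so a count of none in a short list says little. Col1a2 had 181 UMIs in control (579 CPM, 498 to 670) and 149 in WMI (409, 346 to 480), Col3a1 had 65 and 50, and the summed list was at 1491 and 1053 CPM, a log2 ratio of -0.50 (-0.70 to -0.30). Of the 4 tested, Col1a1, Col1a2 and Col3a1 are rule genes, so the median and the sum rest largely on values that chose the members. Of 18 basement membrane genes 7 were tested and none passed 2-fold, against the same 2.23% and 1.19% of all genes. Their median was -0.16, and the summed list was at 2918 and 2940 CPM, a log2 ratio of 0.01 (-0.12 to 0.14). Lama4 was the highest of them, with 56 and 120 UMIs, 0.88 (0.41 to 1.36). Of 14 other collagen genes 3 were tested and 1, Col25a1, was lower, against 1.19% of all genes tested.

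Of 28 proteoglycan and matrix glycoprotein genes 5 were tested and 2 were higher, Fbn2 and Fn1, against 2.23% of all genes tested. Fn1, the gene of fibronectin, had 28 and 79 UMIs, a log2 ratio of 1.27 (0.64 to 1.95) beside 0.81 in the other barcodes. The median over the 5 was 0.91, and the summed list had a log2 ratio of 0.31 (0.16 to 0.47). Dcn, a rule gene, had 69 UMIs in control (221 CPM, 172 to 279) and 151 in WMI (414, 351 to 486), 0.91 (0.49 to 1.34) beside 1.52 in the other barcodes. Dcn had a UMI in 1.91% of control and 7.41% of WMI excitatory barcodes. After thinning it was in 17.0% of control and 13.1% of WMI members, with overlapping intervals (7.65 to 30.8% and 5.84 to 24.2%), so no order was read from these shares. Of 22 collagen processing genes 2 were tested and none passed 2-fold, against 2.23% and 1.19% of all genes tested. Of 19 fibroblast activation genes 1, Tpm1, was tested and was lower, with 74 and 40 UMIs, -1.11 (-1.70 to -0.54). Of all genes tested 1.19% were lower.

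Of 18 transporter genes of leptomeningeal cells 7 were tested, with Slc7a11 higher, Slc47a1 lower and a median of 0.07. Of all genes tested 2.23% were higher and 1.19% lower. Slc7a11, which brings in cystine in exchange for glutamate, had 285 UMIs in 27 control members and 860 in 46 WMI members, that is 912 CPM (809 to 1024) and 2358 CPM (2203 to 2521). Its log2 ratio was 1.37 (1.18 to 1.57), beside 1.22 in the other barcodes. Within the Bnc2-poor members it was at 1673 CPM (1470 to 1897) and 3327 CPM (3098 to 3569). The log2 ratio there was 0.99 (0.78 to 1.20), with 0 to 53 UMIs in control and 0 to 67 in WMI, so that single members overlapped, and with equal shares of the 3 groups the ratio was 0.94. Slc6a20a had 128 and 246 UMIs, 0.72 (0.41 to 1.04). Slc13a3, a carrier of dicarboxylates, had 22 and 68, under the limit for testing.

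Of 26 factor genes of meningeal mesenchyme 11 were tested, none passed 2-fold, against 2.23% and 1.19% of all genes tested, and the median was 0.06. Ebf1, at -0.93 (-1.43 to -0.44), and Foxp2, at -0.75 (-0.99 to -0.50), had the lowest ratios, and 72 of 93 and 282 of 341 of their control UMIs lay in the members with Slc47a1. Within that group Ebf1 was at 626 CPM in control (72 UMIs) and 125 in WMI (9 UMIs), with 35.5% of all its control UMIs in 1 member, and Foxp2 at 2453 and 2330. Foxd1, with 25 and 71 UMIs, was under the limit for testing. Of 13 retinoid genes 2 were tested, of 26 BMP and TGF-beta genes 6, of 10 genes of the insulin-like growth factor system 2, and of 31 growth factors and receptors 10, and none of these passed 2-fold, against 2.23% and 1.19% of all genes. Bmp6 had 309 and 420 UMIs, 0.22 (0.01 to 0.44), and Ptgds 397 in each library, -0.22 (-0.43 to -0.02).

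Of 22 genes of inflammation and complement 3 were tested and 1 was higher, against 2.23% of all genes tested. Cp had 110 and 249 UMIs, a log2 ratio of 0.96 (0.63 to 1.29) beside 1.27 in the other barcodes, and the summed list was at 957 and 1654 CPM, a log2 ratio of 0.79 (0.59 to 0.99). None of the genes of 4 further lists reached the limit for testing. The interferon and antigen presentation list summed to 43 and 107 UMIs, a log2 ratio of 1.09 (0.57 to 1.64). The list of hypoxia, metal and immediate-early genes summed to 99 and 161, a log2 ratio of 0.48 (0.11 to 0.86), the endothelin system, which the study followed, to 47 and 52, and the cell cycle list to 18 and 20.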

How the data were processed

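UMI counts per gene and barcode were read for a control and a WMI library of mouse cortex, with 66470806 and 60568639 UMIs in 10288 and 8354 barcodes. The deposited values are whole-number counts, which the authors produced in Cell Ranger 6.1.1 (file header) and left without normalization. The submitters' processing notes name Seurat and the build mm9, but all 55450 gene identifiers and symbols match GENCODE M21 on GRCm38. Groups were taken from the labels. Steps upstream of the counts beyond these are not given in the sources used here, and the counts in these tables could include RNA free in the suspension, which was not removed.

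The members and gene lists were chosen with earlier results of these data known. Levels are UMIs of a gene per 1000000 UMIs of the summed members (CPM). Shares have Clopper-Pearson, levels Poisson and ratios conditional binomial intervals, computed with SciPy 1.17.1 in Python 3.11.15 and tested on simulated data. They cover counting error only, since barcodes of 1 library are not replicates, so no p-value was computed and a fold of 2 was used as the limit. The genes named are the 8 rule genes, the genes of the lists, the 10 highest and 10 lowest ratios of WMI to control, the 20 genes with the largest ratio of members to other barcodes, and Xist with 2 abundant mitochondrial genes. The genes named for the 3 groups of members had the largest ratios between groups in both libraries, were chosen after their values were seen, and so were the groups. Doublets were predicted in each library with Scrublet in Scanpy 1.11.5 at 0.8% per 1000 barcodes (728 and 527 barcodes) and were kept in the main results. Thinning drew 1000 UMIs per barcode without replacement. The symbols Ctgf, Cyr61 and Tf of the lists were not matched, and Dlx6os1 names more than 1 gene and was left out. The promoter table was matched by symbol. A few genes of the lists are counted in the sums and are not reported here by name. Alternatives changed the number of rule genes, the UMIs per rule gene, the quality limits, doublets, members that also met another class, scaling, weighting by member and the minimum count. Neurons were not among these classes, so members with neuronal genes stayed in.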

Additional observations from a re-analysis of the deposited data

How the results depend on the processing

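No paired analysis was possible because each group has 1 library, and for the same reason no replicate could be left out. The share of members followed the strictness of the rule. It was 0.283% in control and 0.357% in WMI with at least 5 rule genes, 0.335% and 0.493% with 2 UMIs per rule gene, 0.199% and 0.210% after thinning to 1000 UMIs, and 0.126% and 0.0986% (12 and 8 members) without members that also met the markers of another class. The share of Bnc2-rich members was higher in control than in WMI under every planned rule, but the gap nearly closed without members that met another class (41.7% and 37.5%, of 12 and 8 members). Genes at least 2-fold higher and lower in WMI members numbered 18 and 6 after thinning, 6 and 3 without members that met another class, 82 and 40 with a minimum of 50 UMIs, and 15 and 4 with a minimum of 200 UMIs, since fewer members or another minimum changes how many genes are tested. Of the alternatives added after the data had been seen, leaving out WMI members with Xist gave 15 and 44 genes and 12% Bnc2-rich WMI members; the cause was not tested. Other limits on genes, UMIs, mitochondrial share and doublets, and another scaling, kept these counts within 1.5 times.

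Of 414 values for 26 named genes under the alternatives, 403 kept their direction and 348 stayed within the counting interval. The other 11 turned in sign. They were Col25a1 with 2 UMIs per rule gene (0.38), Rcan2 without members that met another class (-1.17), and 9 values of rule genes. Col1a1 was at 0.15 with at least 5 rule genes, 0.56 after thinning and 0.11 with equal shares, and Col1a2 at 0.06 after thinning. Slc6a13 was at -0.23 without predicted doublets, -0.91 without members that met another class and -0.36 with equal shares. Ranbp3l was at -0.26 without members that met another class and Bnc2 at 0.22 with equal shares. The cause was not tested. Several genes past 2-fold came under it. Without WMI members that held Xist these were the 4 named mitochondrial genes (0.48 to 0.89), Rcan2 (0.99), Atp13a5 (-0.74), Pak7 (-0.69) and Rgs6 (-0.95). After thinning they were Slc47a1 (-0.34), Col25a1 (-0.64), Tpm1 (-0.62), Zbtb16 (-0.92), Rgs7bp (-0.46) and Rgs6 (-0.18). Without members that met another class they were Slc47a1 (-0.51), Col25a1 (-0.26), Pak7 (-0.78), Rgs6 (-0.69) and Fat4 (0.41). Rgs6 was also at -0.54 and Atp13a5 at -0.43 with at least 5 rule genes, Tll1 at -0.67 with 2 UMIs per rule gene, and Rgs6 at -0.62 as a mean over members. With equal shares Rgs7bp (-0.73) and Rgs6 (-0.80) came under it beside the genes named in the comparison. Ctsd ranged from 2.43 to 3.58, Fbn2 from 1.12 to 2.44, Fat4 from 0.41 to 2.09 and Ubash3b from -3.78 to -1.59. A member has a median of 6248 or 5545 UMIs, so that a gene missing from a single member may be missing for depth, and genes under 100 UMIs over all members were not compared by fold.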

Other observations

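Of the 30 genes at least 2-fold higher in WMI members, 5 were also at least 4-fold above the other barcodes in both libraries. Of the 1122 genes with at least 50 UMIs in the members of each library 128 (11.4%) were, and no difference from that share was read. The 5 included Slc7a11, Adam12, Sned1 and March3, and the last 3 were picked out after their values were seen. Adam12, which encodes a metalloprotease of mesenchymal cells, had 222 UMIs in 36 control members and 607 in 51 WMI members, a log2 ratio of 1.23 (1.00 to 1.46), beside 0.52 in the other barcodes, and it was higher in each of the 3 groups of members, at 1.02, 1.56 and 0.83. Sned1, a matrix glycoprotein gene, had 118 UMIs in 32 control members and 286 in 48 WMI members, 1.05 (0.74 to 1.38), beside 0.64. March3, which encodes a membrane-bound ubiquitin ligase, had 56 and 155 UMIs, 1.25 (0.80 to 1.71), beside 0.97. By group it was at 0.58, 0.05 and, in Bnc2-poor members, 1.80, and with equal shares of the groups at 0.75. Another 7 of the 30, among them Sox6, Ptprz1 and Lhfpl3, genes of the oligodendrocyte lineage, were below the other barcodes in both libraries, and in 8 of the 30 a single member of 1 library held at least 20% of that library's UMIs. Of the 16 genes lower in WMI members, 5 were below the other barcodes in both libraries, among them the glutamate receptor gene Grin2a with 202 and 111 UMIs. These counts of 7, 8 and 5 are given without the share over all genes, and nothing was read from them.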
